A study of Mus musculus with 6 samples.

Results

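Liver transcripts were measured in 3 wild-type mice that had received GalNAc-siNC, the control reagent of a study of the ubiquitin ligase gene Rnf10. GalNAc-siNC is a non-targeting small interfering RNA joined to N-acetylgalactosamine, a sugar that hepatocytes take up through the asialoglycoprotein receptor, and it was injected under the skin. The mice ate normal chow, the liver was taken at an age of 17 weeks, and the labels give all of them 1 batch. They were male C57BL/6J animals, a sex and strain that the methods and not the labels give. The members were chosen by treatment label alone and are 3 of 6 samples, each read over all 55487 genes of the count table. The other 3 mice received an siRNA against Rnf10 and are not analysed here. Mice that received no siRNA were not used here either, so that these levels are those of liver exposed to a control conjugate. Each library came from whole liver, in which fewer cells of a type and less RNA per cell cannot be told apart.

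The liver is built mostly of hepatocytes, which make the proteins of blood plasma, clear ammonia as urea, keep blood glucose and lipids in balance, make bile acids and modify drugs. A smaller number of Kupffer cells (resident macrophages), sinusoidal endothelial cells, stellate cells and bile duct cells share the tissue. Hepatocytes near the portal vein and near the central vein differ in which of these tasks they carry out, a division known as zonation. In mice, the pulses of growth hormone also make the liver one of the organs whose transcripts differ most between the sexes.

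The libraries held 33058645, 28430868 and 29893592 counts in mice 1, 2 and 3. Of all genes, 22970 had a count in at least 1 mouse and 16978 in every mouse. A mean level of at least 1 CPM (counts scaled to a common library total) was reached by 11885 genes, of which 11055 were protein coding, 10 CPM by 7405 genes, 100 CPM by 1269 and 1000 CPM by 126. Counts were concentrated in few genes: 135, 139 and 135 genes supplied 50% of the counts in mice 1, 2 and 3, and the 10 genes with the most counts supplied between 18.5% and 18.7% of each library. The Y-linked gene Ddx3y had 2472, 1710 and 1985 counts and Xist, the transcript of the inactive X chromosome, had 0, 2 and 2, so that no library went against the sex given in the methods.

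The 5 genes used to check that the tissue was liver were high in every mouse. Levels are given per mouse, or as mean ± SD (n = 3 mice), in CPM per kb, which is CPM on TMM-scaled library sizes divided by the deposited gene length, and positions, where given, are those of GENCODE M21 on GRCm38. Alb, which encodes albumin, lies on the plus strand of chr5:90460897-90476602 and was at 18412, 15799.9 and 16627 CPM per kb in mice 1, 2 and 3. Apoa1 on chr9:46228580-46230466 encodes the main protein of high-density lipoprotein and was at 4436, 5779.7 and 5633 CPM per kb. Ttr encodes transthyretin, a carrier of thyroid hormone, and was at 2323, 2859 and 3229.7 CPM per kb. All 3 transcripts stood among the 30 highest of the tissue. Cps1 on chr1:67123026-67231259 encodes the enzyme that commits ammonia to the urea cycle in periportal cells, and its level was 562, 498 and 505 CPM per kb. Glul on chr1:153899944-153909723 encodes glutamine synthetase, which marks the last hepatocytes around the central vein, and its level was 257, 281 and 279 CPM per kb. Ranges were read for 9812 genes, those whose normalized count averaged 100 or more over the mice, and in 764 of them (7.79%) the highest mouse was at least 1.5 times the lowest, which is called a wide range here. None of the 5 markers had one, and their coefficients of variation (CV, the SD as a percentage of the mean over the 3 mice) lay between 4.86% for Glul and 16.3% for Ttr.

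Promoter sequence is shown for 4 of the 30 highest genes, which encode a urinary protein, albumin, a fibrinogen chain and the vitamin D carrier, because transcripts of these kinds led the tissue. Each line gives the 250 bases before the transcription start in RefSeq on build GRCm38.p6, 5′ to 3′ on the strand of the gene, with every match to 5 short motifs in capitals. The stretches are chr4:60070476-60070725 on the minus strand for Mup7, chr5:90460620-90460869 on the plus strand for Alb, chr3:83049864-83050113 on the minus strand for Fgb and chr5:89457899-89458148 on the minus strand for Gc.
Mup7: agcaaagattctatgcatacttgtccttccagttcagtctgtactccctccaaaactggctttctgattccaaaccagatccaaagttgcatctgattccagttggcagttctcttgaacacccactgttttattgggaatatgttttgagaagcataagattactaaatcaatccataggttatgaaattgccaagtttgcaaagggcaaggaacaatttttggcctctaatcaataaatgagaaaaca
Alb: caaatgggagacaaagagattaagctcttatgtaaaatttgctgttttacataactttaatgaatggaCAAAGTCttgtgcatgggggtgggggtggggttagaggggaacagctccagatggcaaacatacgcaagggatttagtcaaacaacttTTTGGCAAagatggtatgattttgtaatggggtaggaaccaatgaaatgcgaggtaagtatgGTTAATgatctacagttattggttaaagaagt
Fgb: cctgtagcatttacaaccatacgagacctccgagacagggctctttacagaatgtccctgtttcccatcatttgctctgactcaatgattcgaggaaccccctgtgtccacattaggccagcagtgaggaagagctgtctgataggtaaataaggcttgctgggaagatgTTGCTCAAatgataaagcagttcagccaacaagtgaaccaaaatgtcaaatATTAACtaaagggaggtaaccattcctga
Gc: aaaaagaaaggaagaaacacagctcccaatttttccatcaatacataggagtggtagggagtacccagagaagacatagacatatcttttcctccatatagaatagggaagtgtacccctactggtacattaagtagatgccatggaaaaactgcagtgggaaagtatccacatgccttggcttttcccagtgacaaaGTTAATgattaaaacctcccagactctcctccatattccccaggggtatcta
The motifs were searched on both strands as GTTAAT (the core bound by HNF1 factors), TTGCNNAA (C/EBP factors), TGTTTAC (FOXA factors), CAAAGTC (HNF4 factors) and TATAAA (the TATA box). In the Alb promoter the HNF1 core stood 32 to 27 bases before the start, the C/EBP core at 94 to 87 and the HNF4 core at 182 to 176. These distances are from the RefSeq start. The Alb window ends at base 90460869, upstream of the GENCODE M21 gene start at 90460897, so the bases between were not searched. In the Fgb promoter the HNF1 core stood at 29 to 24 and the C/EBP core at 80 to 73, and in the Gc promoter the HNF1 core at 52 to 47. The window of Mup7 held none of the 5 strings.

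Of the 100 nuclear genes with the highest CPM per kb, 72 were matched to a promoter of the RefSeq table by symbol. The HNF1 core was present in 14 of the 72 (19.4%), beside 1762 of 27018 promoters of all genes (6.52%). The C/EBP core was present in 17 of the 72 (23.6%), beside 9.56% of all promoters. The other strings were closer to the background, with the TATA box in 13.9% of the 72 beside 13% of all, the HNF4 core in 6.94% beside 3.8% and the FOXA core in 4.17% beside 3.09%. These are matches of letters in a window and not measured binding.

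Secreted plasma proteins, urinary proteins and mitochondrial transcripts made up the top of the liver transcriptome. The 30 genes with the highest mean CPM per kb supplied between 29.2% and 30.2% of CPM in each mouse. Mup7, which encodes a major urinary protein, a carrier of pheromones, was first with 15665, 16980.4 and 18543 CPM per kb, and Alb was second. Fabp1, which encodes the fatty acid binding protein of the cytosol, also stood among the 30. Its level was 2460.2, 3516 and 4260.0 CPM per kb, a 1.73-fold range with mouse 1 lowest. After the length and GC correction described below, the range of Fabp1 was 1.23-fold and no longer wide. Vtn, which encodes vitronectin, was at 2243 ± 103 and Ambp, which encodes the precursor of alpha-1-microglobulin and bikunin, at 2664 ± 238 CPM per kb. The ranges of Mup7 and Alb overlapped, so that their order is not resolved, and Alb was first by CPM without division by length. The ranges of 7 of the 29 neighbouring pairs in the order did not overlap, among them the steps from Alb to mt-Co1, from mt-Co1 to Serpina1e, from Serpina1e to Hpx and from Hpx to Mup3. Below the tenth gene, Trf, the steps from mt-Nd1 to Gc and from Fgb to Vtn were apart and the other neighbours overlapped.

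**Figure D1:**
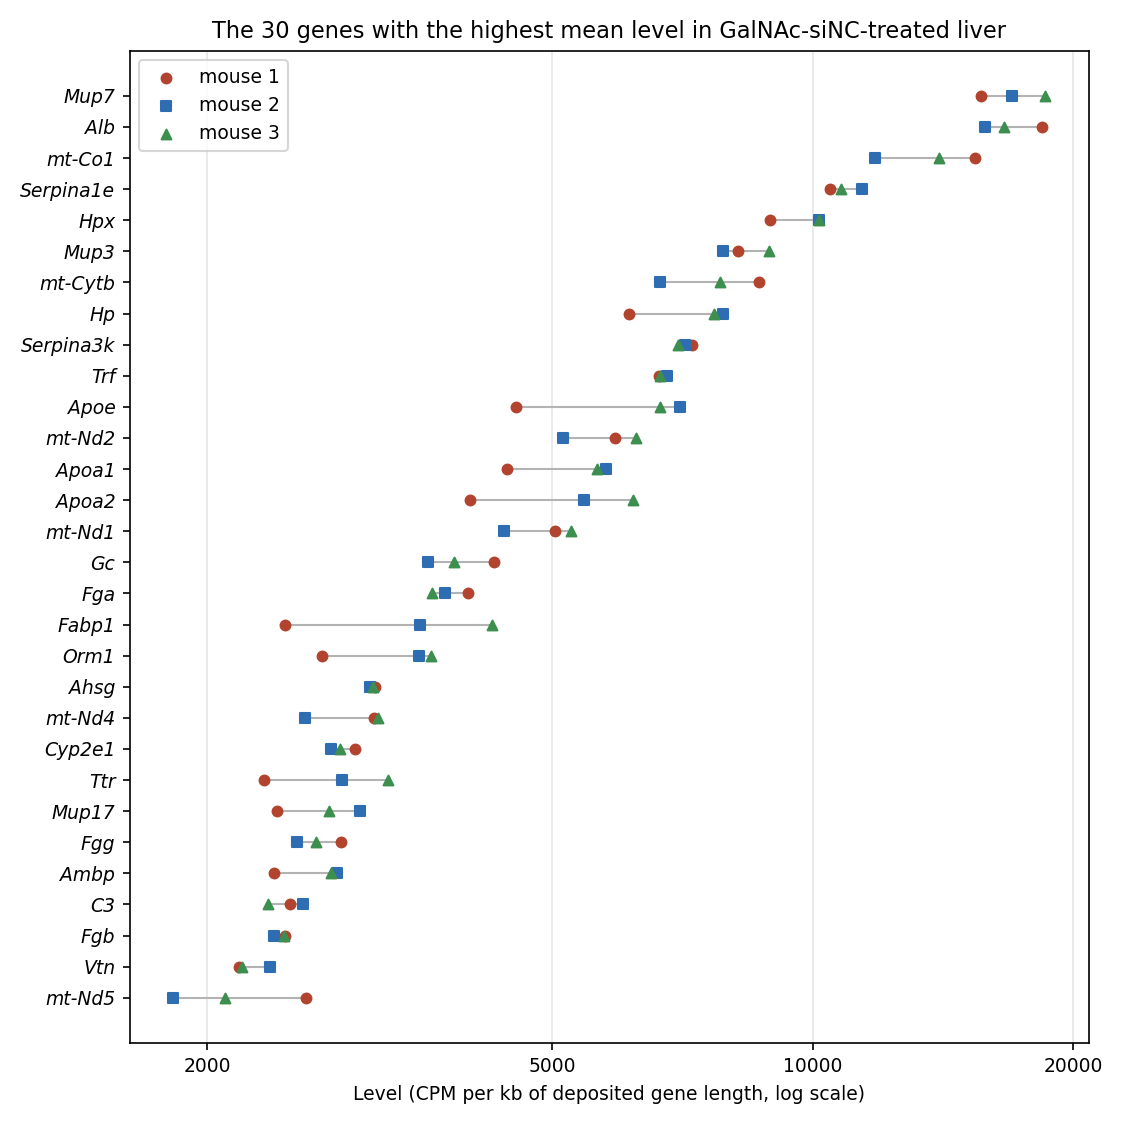
Level of the 30 highest genes in each of the 3 GalNAc-siNC-treated mice, as CPM per kb of deposited gene length on a log axis; points are mice and grey lines join the lowest and the highest mouse. Apoe, Apoa2 and Fabp1 have the widest lines, with mouse 1 lowest, whereas the 3 points of Ahsg, Trf and Serpina3k nearly coincide. Levels are drawn without the length and GC correction.

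Carriers led the plasma proteins. The 12 carrier genes together held 10.2, 9.86 and 10.1% of TMM-scaled counts in mice 1, 2 and 3. Hpx, which encodes hemopexin, a scavenger of free heme, was at 8918, 10171 and 10159 CPM per kb, and Trf, which encodes transferrin, the iron carrier of plasma, was at 6655, 6797 and 6668. Gc, the vitamin D binding protein gene, was at 4282, 3598 and 3854 and Ahsg, which encodes fetuin-A, an inhibitor of mineral deposition, at 3121, 3082 and 3105. Without the length and GC correction the levels of Trf and Ahsg were nearly the same in all mice, with CVs of 1.17% and 0.631%. After it their CVs were 2.49% and 6.94%, beside a median of 6.62% over all genes read for range. The level and rank of Trf are uncertain, since 53.2% of the 100-base words of its transcripts also occur in another annotated gene, Gm20425. Rbp4, the retinol carrier gene, had its highest level in mouse 3, at 1248, 1588 and 1724 CPM per kb, and the thyroxine carrier gene Serpina7 was the lowest of the group at 5.67, 5.03 and 4.99. None of the 12 had a wide range.

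Protease inhibitors, coagulation factors and complement components had no wide range among the members read. The 15 inhibitor genes held 5.73, 5.73 and 5.61% of TMM-scaled counts. They were led by Serpina1e and Serpina3k, which encode alpha-1-antitrypsin and an antichymotrypsin-like serpin, at 10474, 11391 and 10796 and at 7251, 7117 and 6995 CPM per kb. A2m stood apart from the other members, with 52, 34 and 32 counts in mice 1, 2 and 3, while the related macroglobulin genes Pzp and Mug1 were at 1077 ± 99.7 and 589.7 ± 57.1 CPM per kb (mean ± SD, n = 3). The 3 fibrinogen chain genes Fga, Fgb and Fgg were at 3798 ± 188, 2433 ± 39.7 and 2687 ± 155 CPM per kb, with Fga the highest of the chains in the mean. Vitamin K dependent factors lay lower, with prothrombin (F2) at 436 ± 21.5, F10 at 192 ± 14.4, F9 at 96.8 ± 7.44 and F7 at 72.3 ± 4.14 CPM per kb. C3, the component on which the complement pathways meet, was at 2494, 2579.8 and 2349 CPM per kb, while Cfb, its partner in the alternative pathway, was listed at 4.31, 4.34 and 4.83. The value of Cfb is uncertain, since 66.9% of the 100-base words of its transcripts also occur in another annotated gene, and how reads shared by genes were counted is not given in the sources used here. The median CV was 5.2% for the 17 coagulation genes, 5.68% for the inhibitors read for range and 6.51% for the 18 complement genes, and none of these members had a wide range. After the length and GC correction these medians were 5.36%, 6.66% and 4.99%, beside 6.62% over all genes read for range.

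Acute phase genes were detected at all 15 loci. Hp, which encodes haptoglobin, was at 6135, 7872 and 7696 CPM per kb and Orm1, an orosomucoid gene, at 2710.3, 3507 and 3629.6. Mouse 1 was lowest for both. The serum amyloid genes Saa1 and Saa2 were at 1537, 2128 and 2429 and at 1565, 1927 and 2200.1 CPM per kb, and Saa3 at 61.8, 85.7 and 98.6. Hamp, which encodes hepcidin, the hormone that limits iron release, was at 531, 682 and 762. Lcn2, the siderophore binding lipocalin gene, was at 198, 197 and 214, and Crp at 115, 112 and 119. Mouse 3 was highest in 10 of the 15 genes, beside 29.9% of all genes read for range, and Saa1 and Saa3 had ranges of 1.58-fold and 1.6-fold. After the length and GC correction described below the range of Saa1 was 1.46-fold and no longer wide, and that of Saa3 was 1.53-fold. The deposited lengths of Saa1 and Saa2 include exons of longer gene models (2478 and 2518 bases), which lowers CPM per kb.

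Apolipoprotein transcripts stood out by their spread among the 3 mice. Apoe was at 4539.8, 7035 and 6669.9 CPM per kb, Apoa2 at 4016, 5442 and 6202 and Apoc1 at 852, 1372 and 1605. Mouse 1 was below both other mice in these 3 genes. Apoc3, an inhibitor of triglyceride clearance, was at 786, 1009 and 1189.9 and Apoc4 at 62.2, 87.3 and 103 CPM per kb. Apob, the structural protein of very-low-density lipoprotein and by far the longest of the genes, was highest in mouse 1, at 498, 393 and 417 CPM per kb. Of the 12 apolipoprotein genes read for range, mouse 1 was lowest in 10, beside 37.8% of all genes read. A wide range was found in 5 of the 12, Apoe, Apoa2, Apoc1, Apoc3 and Apoc4. These genes had a median length of 1704.5 bases and a median GC content of 55.8%, beside 4532 bases and 49.7% over all genes read for range. After the correction none of the 12 had a wide range, and their median CV was 5.46% in place of 16.4%. The part of length and GC in this difference was not tested.

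**Figure D2:**
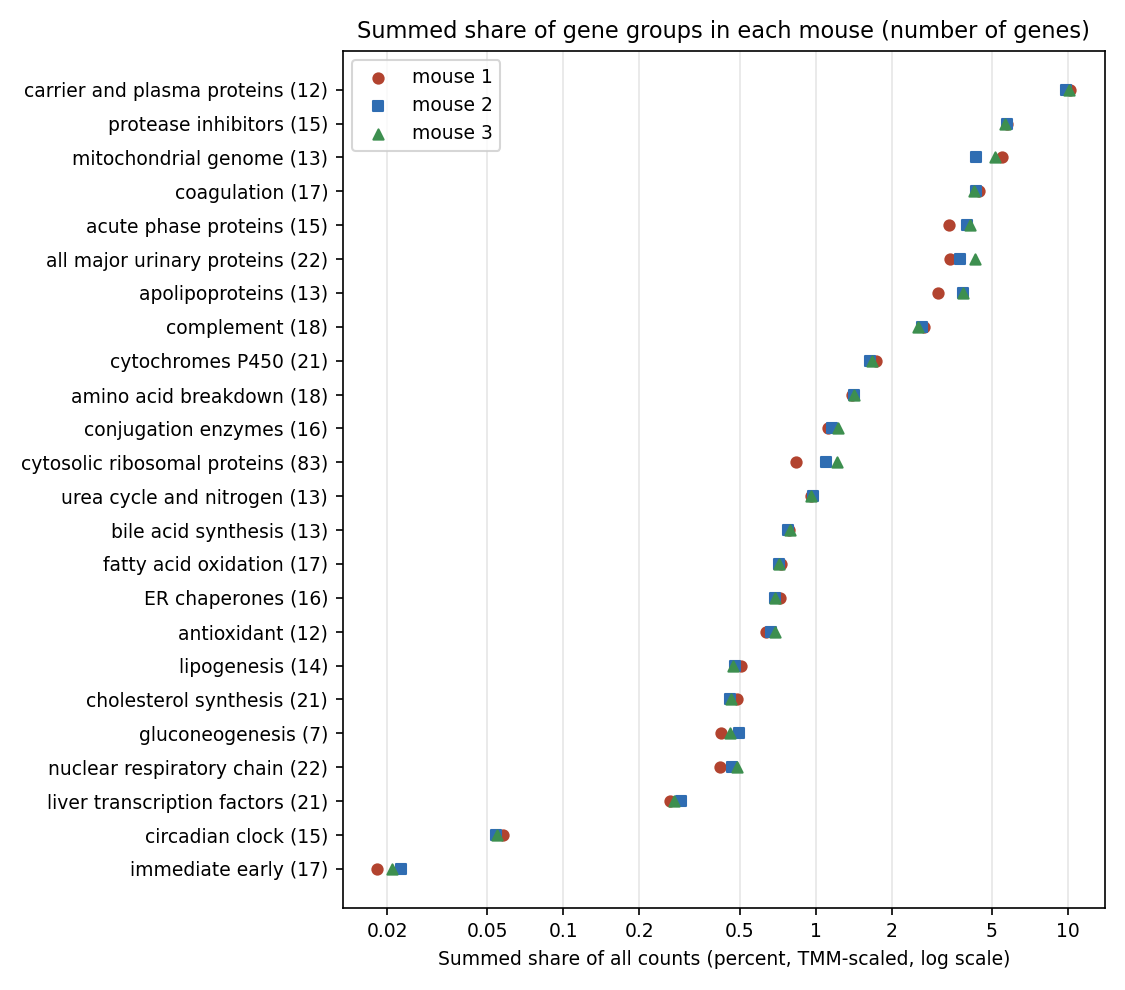
Summed share of all counts held by 24 gene groups in each of the 3 mice, in percent of TMM-scaled counts on a log axis, with the number of genes in brackets; points are mice. Carriers lie highest, between 9.86% and 10.2%, and mouse 1 lies to the left for ribosomal proteins, apolipoproteins and acute phase proteins.

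No enzyme gene of nitrogen and amino acid metabolism had a wide range. The urea cycle genes Ass1 and Arg1 were at 566, 672 and 594 and at 521, 573 and 563 CPM per kb, and Otc, on the X chromosome, at 101, 89.6 and 98.8. Ass1 shares 26.9% of its words with other genes, chiefly the pseudogene Gm5424, which had 8542, 8028 and 9075 counts. The 13 genes of the list held 0.958, 0.978 and 0.961% of TMM-scaled counts, with a median CV of 6.29%. Among 18 genes of amino acid breakdown, Mat1a and Gnmt, which make and use the methyl donor S-adenosylmethionine, were at 724 ± 29.6 and 773 ± 68.3 CPM per kb. The median CV of the 18 was 4.28%, beside 8.80% over all genes read for range.

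Levels differed widely among the genes of glucose synthesis, from 0.995 to 715 CPM per kb, as they did among those of glucose use. Pck1, whose enzyme starts gluconeogenesis, was at 647, 790.4 and 706 CPM per kb and Fbp1 at 451, 516 and 525. G6pc, which releases free glucose, was at 101, 87.7 and 93.2. Pfkl, the liver phosphofructokinase gene, was at 4.32, 5.04 and 4.56. Of the glycolysis list Rgs16, a regulator of G protein signalling, varied most, with 1.39, 2.05 and 2.51 CPM per kb and a range of 1.8-fold, the only wide range of the list, also after the correction. Glycogen genes were even, with Gys2 (glycogen synthase) at 65 ± 1.04 and Pygl (phosphorylase) at 66.4 ± 3.1 CPM per kb.

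Lipid metabolism genes covered a wide range of levels with little spread between mice. Of the 17 genes of fatty acid oxidation, Cpt1a, whose enzyme admits long-chain fatty acids to mitochondria, was at 69, 61.2 and 61.7 CPM per kb with 17619, 13373 and 13866 counts, and Ppara, the nuclear receptor gene, at 26.8 ± 1.42. Of the lipogenic genes Scd1 led with 539, 452 and 476 CPM per kb, followed by Dgat2 at 170.2 ± 8.68, whereas Fasn was at 34 ± 2.56, Acaca at 5.46 ± 0.327 and Acacb at 8.64 ± 0.85. Pnpla3 had only 13, 8 and 1 counts. Among the 21 genes of the cholesterol pathway Sqle, which encodes squalene epoxidase, was at 30.7, 27.9 and 28.1 and Cyp51, a demethylase of the pathway, at 75.7, 64.9 and 69.7. None of the oxidation, ketogenesis, lipogenesis or cholesterol genes read for range had a wide range.

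Among lipid droplet and lipoprotein genes a few differed widely between mice. Plin2, the coat protein of hepatocyte lipid droplets, was at 99.7, 113 and 109 CPM per kb and Hsd17b13, a droplet enzyme of hepatocytes, at 126, 121 and 127. Plin1 and Cidea, known from fat tissue, had no count in any mouse, and Cidec had 109, 67 and 84 counts. G0s2, an inhibitor of the lipase ATGL, was at 20.1, 31.1 and 32.7 and Cideb, which enlarges very-low-density lipoprotein, at 14.9, 28.3 and 24.7, and both had a wide range with mouse 1 lowest, which Cideb alone had after the correction. Cideb shares 63.5% of its words with other genes, chiefly Nop9. Pnpla2, which encodes ATGL, was at 25, 28.9 and 23.7 with mouse 3 lowest. Among 14 genes of lipoprotein assembly and clearance Mttp, which loads lipid onto apolipoprotein B, was at 54.4, 49.3 and 51.5 and Lcat, which esterifies plasma cholesterol, at 321, 334 and 324. Angptl8, an insulin-induced inhibitor of lipoprotein lipase, was the only wide range of that list at 14.7, 25.7 and 23.2.

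Genes of the insulin and growth hormone axis were read in the same livers. Igf1, the main endocrine product of growth hormone action, was at 66.9, 60 and 67.3 CPM per kb and the receptor gene Ghr at 63.5, 53.7 and 57.1, with mouse 2 lowest for both. Socs2, a feedback inhibitor induced by growth hormone, was at 2.0, 1.59 and 1.3 with mouse 3 lowest. Igfbp2 was at 71.4, 109 and 99.3 with mouse 1 lowest, whereas Igfbp1, which insulin represses, was at 6.86, 6.27 and 7.49. The insulin receptor gene Insr and the adaptor gene Irs2 were at 11.8 ± 0.974 and 2.47 ± 0.0985 CPM per kb. Of 15 genes read, 3 (Angptl8, Igfbp2 and Socs2) had a wide range and none after the correction.

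Bile acid genes and drug-metabolizing enzymes had no wide range among the members read. Cyp7a1, the rate-limiting enzyme of bile acid synthesis, was at 65.8, 51.2 and 57.6 CPM per kb, below Cyp7b1 at 334, 293 and 323 and Cyp8b1 at 172, 194 and 180.2. The bile salt exporter gene Abcb11 and the importer gene Slc10a1 were at 98.2 ± 5.52 and 247 ± 19. Hsd3b7, another enzyme of the pathway, was listed at 0 in all 3 mice. Of the 100-base words of its transcripts, 72% also occurred in transcripts of other genes, where reads cannot be told apart. Cyp2e1 was the highest of 21 cytochrome P450 genes at 2960.2, 2778 and 2845 CPM per kb, followed by Cyp2d9 at 540.5 ± 7.0 and Cyp2f2 at 514 ± 26.1. The inducible genes Cyp4a14 and Cyp2b10 were low, with 263, 171 and 214 and with 15, 24 and 8 counts. Among conjugation enzymes the glutathione transferase genes Mgst1 and Gstp1 were at 1358, 1474 and 1623 and at 646, 897 and 948 CPM per kb, with mouse 1 lowest for both.

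The conjugation genes and those of alcohol, aldehyde and retinol metabolism had median CVs of 6.35% and 4.21% by list. Ephx2, which hydrolyses epoxides of fatty acids, was at 263, 265 and 264 CPM per kb, with a CV of 0.395%, and Adh1, the main alcohol dehydrogenase gene, was at 521, 518 and 533. Aldh2, whose enzyme clears acetaldehyde, was lower in mouse 1, at 249, 334 and 316. None of the 16 conjugation and 11 alcohol and aldehyde genes had a wide range. Among 10 transporter genes of bile and organic anions, which likewise had no wide range, the canalicular pump gene Abcc2 was at 62.9 ± 5.92 and the sterol exporter genes Abcg5 and Abcg8 were at 24.5 ± 2.46 and 24.1 ± 0.75 CPM per kb.

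Genes of iron handling and of defence against oxidants were abundant. The ferritin chain genes Fth1 and Ftl1 were at 233, 278 and 295 and at 367, 458 and 453 CPM per kb, and Tfr2, a sensor of transferrin iron in hepatocytes, was at 122, 157 and 139. Mouse 1 was lowest in these 3 genes. Mt1, the metallothionein gene that answers zinc and glucocorticoids, was at 201, 279 and 332 and was the only one of 14 iron and metal genes read with a wide range. Its neighbour Mt2 had 37, 88 and 90 counts, with mouse 1 lowest again. Catalase (Cat) was at 1138, 1071 and 1057 CPM per kb and Gpx1, the selenium enzyme that reduces peroxides, at 861, 1081 and 1156. Sod1, the cytosolic superoxide dismutase gene, was at 97, 132 and 149.8 and was the only wide range among 12 antioxidant genes, while the NRF2 targets Nqo1 and Srxn1 were at 2.7 ± 0.14 and 12.3 ± 0.304. Neither Mt1 nor Sod1 had a wide range after the length and GC correction, the part of which in these differences was not tested.

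Markers of both zones were detected. The periportal genes Cyp2f2, Hal and Sds were at 514 ± 26.1, 65.4 ± 1.74 and 52 ± 4.73 CPM per kb. The pericentral genes Cyp1a2 and Rgn were at 436 ± 16.7 and 551 ± 31.8. Axin2 and Lgr5, targets of Wnt signalling near the central vein, were low at 1.43, 1.37 and 1.14 and at 0.804, 0.515 and 0.553 CPM per kb. No periportal gene and 1 of the 17 pericentral genes read for range, Lgr5 with 1.56-fold, had a wide range, and none had one after the correction.

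Genes known to be higher in male liver were abundant and those known to be higher in female liver were scarce. The median level was 194 CPM per kb over the 17 male-biased genes and 0.0386 over the 20 female-biased genes. Hsd3b5, Cyp4a12a and Elovl3 were at 212 ± 3.26, 85 ± 6.95 and 39.6 ± 2.08 CPM per kb. Of the female-biased genes 6, among them Cyp2b9, Sult2a1 and Hao2, had no count in any mouse, which allows a level of up to 3 counts, or 0.106 CPM in the smallest library, for counting error only. Cyp2c40 was the highest of them at 14 ± 0.427 CPM per kb.

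The 22 major urinary protein genes differed widely among the mice. Together they held 3.41, 3.72 and 4.27% of TMM-scaled counts in mice 1, 2 and 3, with mouse 3 highest. Mup20, which encodes the male pheromone darcin, was at 1586, 1824 and 2562 CPM per kb, with mouse 3 highest. Mup14 was at 1383, 1394 and 2704 CPM per kb, again with mouse 3 highest, and Mup19 at 191, 337 and 191 with mouse 2 highest. Mup10 had the largest range of any gene read, at 8.23, 34.3 and 39.2 CPM per kb from 383, 1363 and 1602 counts, with mouse 1 far below the other mice. Of the 19 family members read for range, 8 had a wide range and 7 after the correction for length and GC. The family list was added after its values were seen. Its transcripts are near copies: 76.1% of the 100-base words of Mup7, 73.4% of those of Mup10 and all those of Mup19 and Mup22 also occur in other genes, so that values of single members are uncertain.

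Mitochondrial transcripts supplied 5.64, 4.44 and 5.16% of unscaled counts in mice 1, 2 and 3. The 13 protein genes of the mitochondrial chromosome differed much in level from each other although they are copied from shared precursors. Of the 12 read for range among the mice, 2 had a wide range and 1 after the length and GC correction. The latter was mt-Nd4l, with ratios of 1.84 before and 2.36 after it. mt-Co1, a subunit of cytochrome c oxidase, was at 15394, 11802 and 13977 CPM per kb and mt-Cytb at 8682, 6655 and 7814, with mouse 2 lowest for both. mt-Co2, mt-Co3 and mt-Atp6 were at 119, 125 and 149.7, at 76.1, 98 and 143 and at 97.8, 101 and 134 CPM per kb. Over 99% of the 100-base words of these low genes (99.5%, 99.9% and 99.5%) also occur in transcripts of other annotated genes (Gm28661, Gm28437 and Gm10925), beside 30.8% for mt-Co1 and none for mt-Cytb and mt-Nd1. mt-Nd4, however, shares 60.8% and was at 3115, 2592 and 3148 CPM per kb. Gm10925 itself had 2286, 1961 and 2638 counts, beside 2228, 1969 and 2690 for mt-Atp6. The levels of mt-Co2, mt-Co3 and mt-Atp6 are therefore uncertain, and the part of shared sequence in the gap was not tested.

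Transcription factors of hepatocyte identity were present at moderate levels. Cebpa and Hnf4a were the highest of the factors chiefly known for this role, at 127, 187 and 162 and at 97.2, 99.7 and 95.4 CPM per kb, and Rxra, the partner of many nuclear receptors, was at 76 ± 2.88. Foxa1, Foxa2 and Foxa3 were at 8.34 ± 0.424, 13.2 ± 1.27 and 31 ± 2.28. Cebpb, a factor induced in the acute phase, varied most at 37.6, 89.5 and 71.9 CPM per kb, with mouse 1 far below the other mice. Mouse 2 was highest in 16 of the 21 factors, beside 31.3% of all genes read for range, and 2, Cebpb and Nr2f6, had a wide range that neither had after the length and GC correction. The factors had a median GC content of 54.2%, beside 49.7% over all genes read for range. The count for mouse 2 is without the correction, and the part of GC content in it was not tested.

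Transcripts that follow feeding, time of day and stress were read next. The fasting-induced genes Fgf21 and Pdk4 were low: Fgf21 had 18, 11 and 12 counts and Pdk4 41, 35 and 20. The list of 14 fasting response genes had a median of 11.3 CPM per kb and a highest level of 715, and 12 were read for range. The 12 feeding response genes had a median of 33.3 CPM per kb. Neither list had a member with a wide range, and the feeding state of the mice was not tested. Among clock genes the repressor genes Nr1d1 and Per2 were at 20, 19 and 16.7 and at 4.78, 4.72 and 5.11 CPM per kb, whereas Arntl and Npas2, on the opposite phase of the cycle, had 60, 42 and 31 and 2, 6 and 4 counts. Dbp, a clock output factor, was at 21, 35.4 and 32.7 CPM per kb with mouse 1 lowest. The time of day of collection was not given in the sources used here. Of the 13 core clock genes read for range none had a wide range, and of 10 output genes Dbp did. After the length and GC correction this turned, with a range of 1.6-fold for the core gene Bhlhe41 and of 1.32-fold for Dbp. The immediate early gene Junb was at 9.18, 16.2 and 15.3 CPM per kb with mouse 1 lowest, a range that was not wide after the correction, while Fos had 20, 29 and 18 counts. The chaperone genes of the endoplasmic reticulum were even, with Hspa5 at 173 ± 7.83 and Calr at 419 ± 0.849 CPM per kb. None of these 16 genes had a wide range.

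The median CV was 13.2% for 6 integrated stress response genes read, 12.7% for 9 p53 targets and 5.29% for 10 heat shock genes, beside 8.80% over all genes. Atf4, the factor of the integrated stress response, was at 29.1, 33.4 and 36.3 CPM per kb, while its targets Asns and Trib3 were at 5.45 ± 0.405 and 3.37 ± 0.423, and Gdf15 had 13, 32 and 21 counts. Chac1 was the only one of the 6 with a wide range, at 1.61, 2.42 and 2.47, and had none after the length and GC correction. The p53 target Cdkn1a had 41, 31 and 31 counts and Mdm2 was at 5.79 ± 0.442 CPM per kb. Gadd45g was the only wide range among the p53 targets, at 50.6, 79.4 and 71.5, and had none after the correction. The glucocorticoid-induced genes Tat, Tsc22d3 and Fkbp5 were at 339.7 ± 11.6, 12.1 ± 0.173 and 3.88 ± 0.265 CPM per kb, and none of the 9 members read had a wide range. Of 10 heat shock genes read, Hsp90ab1 was at 321, 351 and 325, and 3 (Hspe1, Hspb1 and Hspa1b) had a wide range with mouse 1 lowest, with shared words of 11%, 44% and 49.9%. After the correction Hspa1b alone had a wide range.

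Antigen presentation genes were expressed in both classes. B2m, the light chain of class I molecules, was at 1704, 1665 and 1953 CPM per kb, and the heavy chain genes H2-K1 and H2-D1 were at 369.7, 479 and 472 and at 218, 279 and 268. Mouse 1 was lowest in 8 of the 10 class I genes, beside 37.8% of all genes read, and Psmb8, an immunoproteasome subunit gene, had a wide range at 2.8, 4.59 and 4.73, also after the correction. The class II chain genes H2-Ab1 and H2-Aa, found on macrophages, dendritic cells and B cells, were at 2.33, 2.9 and 3.14 and at 2.14, 2.0 and 2.11 CPM per kb.

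Interferon-stimulated genes were detected and inflammatory cytokine transcripts were scarce. The interferon-stimulated genes Isg15 and Bst2 were at 16.3, 25.1 and 30.4 and at 92.6, 154 and 176 CPM per kb with mouse 1 lowest, whereas Ifit1 and Rsad2 were highest in mouse 1 at 8.02, 6.67 and 6.17 and at 2.59, 1.85 and 2.09. Of the 15 genes of the list read for range, mouse 1 was highest in 2, mouse 2 in 7 and mouse 3 in 6, beside 38.8%, 31.3% and 29.9% of all genes. A wide range was found in 3 of the 15, Isg15, Bst2 and Oas2, and after the correction in Oas2 alone. The median CV of the list nevertheless rose with the correction, from 7.93% to 12.4%. Over all genes read for range it fell from 8.80% to 6.62%. Among inflammatory cytokine genes Il1b had 58, 44 and 34 counts, Ccl2 6, 1 and 10, Tnf 0, 0 and 4 and Il6 none. Among fibrosis genes Col1a1 had 420, 416 and 407 counts, Acta2 32, 38 and 33 and Timp1 4, 0 and 4, while Fn1, whose product hepatocytes secrete into plasma, was at 204 ± 15.9 CPM per kb. Cell cycle genes were low, with Mki67 at 94, 72 and 55 and Top2a at 46, 42 and 21 counts.

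Markers of non-parenchymal cells were measurable, and markers of neighbouring organs were nearly absent. The Kupffer cell genes Clec4f and Cd5l were at 23.6, 28.7 and 27.8 and at 28.7, 32.4 and 32.7 CPM per kb, and all 14 members had counts. The summed level of the 14 genes was 385, 423 and 421 CPM in mice 1, 2 and 3. Complement genes C1qa, C1qb and C1qc of these macrophages were lowest in mouse 1, with C1qa at 18.5, 30.1 and 28.4 CPM per kb. Of the 13 Kupffer cell genes read, C1qa and C1qc had a wide range and neither had one after the correction. The endothelial genes Stab2 and Clec4g were at 2.73, 2.79 and 2.81 and at 3.73, 3.97 and 4.07, and their 14-gene sum was 163, 162 and 159 CPM. The stellate cell genes Dcn, Lrat and Reln were at 8.55 ± 0.447, 1.29 ± 0.103 and 0.707 ± 0.0289 CPM per kb, and the sum of 16 genes was 216, 211 and 216 CPM.

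Bile duct cells gave few counts in their defining genes, with Krt19 at 19, 36 and 31 and Epcam at 29, 22 and 22 counts, although Spp1 was at 38.1 ± 1.24 CPM per kb. Blood was visible through hemoglobin: Hbb-bs was at 88.5, 115 and 141 and Hba-a1 at 45.5, 79.6 and 97.4 CPM per kb, with mouse 1 lowest and mouse 3 highest, whereas Alas2, the erythroid heme synthesis gene, was at 59.5, 57.9 and 53.9. Of 4 erythroid genes read, 3 had a wide range (Hbb-bs, Hba-a1 and Hbb-bt) and none after the correction. Values of single globin genes are uncertain, since 49.7% of the words of Hbb-bs and 63.3% of those of Hba-a1 occur in other genes. No lymphocyte or neutrophil marker except Cd4, with 162, 123 and 101 counts, reached a mean normalized count of 100. Of the other tissues, 6 of 11 pancreas genes, 6 of 7 adipose genes, 4 of 7 muscle genes and 5 of 6 kidney genes had no count in any mouse. The highest genes of these lists were Car3 at 490.4 ± 27.3 CPM per kb in the adipose list, Cela1 at 6.69, 9.47 and 9.92 in the pancreas list and Fabp2 at 26.5, 29.9 and 33.9 in the intestine and gallbladder list, genes that liver is also known to express.

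**Figure D3:**
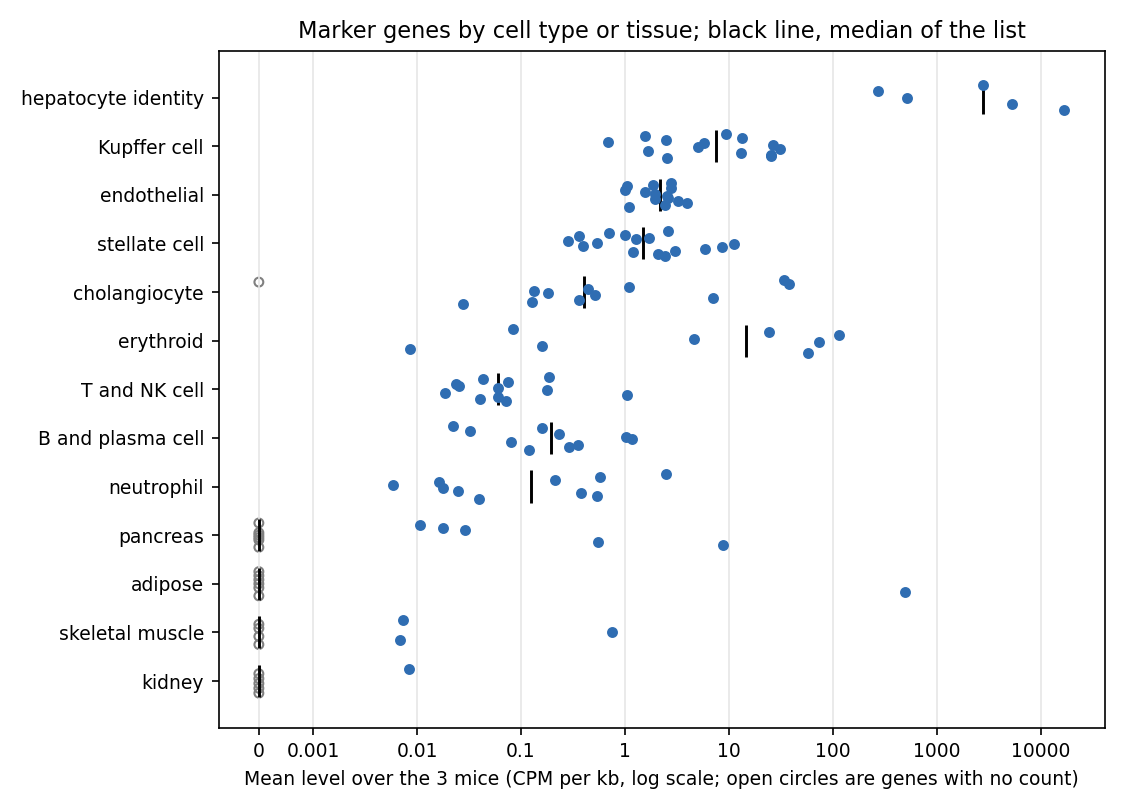
Mean level over the 3 mice of each marker gene of 13 cell types or tissues, as CPM per kb on a log axis with genes without a count drawn as open circles at a position marked 0; black lines are list medians. Hepatocyte genes lie between 272 and 16946, the medians of Kupffer, endothelial and stellate genes are 7.51, 2.17 and 1.49, and most pancreas, adipose, muscle and kidney genes at 0.

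The 18 listed genes of the study, Rnf10 among them, were all above the count at which ranges were read, and none of the 18 had a wide range. The inflammatory and fibrosis panels of the study were separate lists of 5 genes each, of which 0 and 2 were read for range. Rnf10 was at 17.6, 20.4 and 18.4 CPM per kb from 4444, 4398 and 4089 counts, with a CV of 7.61%. Rnf181, another RING finger gene, was at 22, 24 and 25.1. Asgr1, the major subunit of the receptor that takes up the GalNAc conjugate, was at 251, 317 and 335 CPM per kb, and Asgr2 at 108, 115 and 112. In every mouse Asgr1 was above Asgr2, and mouse 1 was lowest for Asgr1. Ago2, which carries the guide strand and cuts the target, was far lower at 1.28, 1.11 and 1.2 CPM per kb, with Ago1 at 3.37 ± 0.232 and Dicer1 at 3.35 ± 0.289. Of the 9 AMPK pathway genes, the catalytic subunit gene Prkaa2 was at 9.87, 7.93 and 8.58 and Prkaa1 at 2.9, 2.68 and 2.98. Prkag1, a regulatory subunit gene, was the only one of 7 read with a wide range, at 1.94, 3.17 and 2.95, and had none after the correction, and the median CV of the 7 was 11.2%.

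The 3 mice were compared with each other to find how much control animals differ. The biological coefficient of variation, the spread that edgeR attributes to animals after counting error is removed, was 11.7% over 13181 genes. A chi-square test of each gene's counts over the 3 libraries, with Benjamini-Hochberg adjustment, (adjusted p under 0.05) called 7001 of 14010 genes averaging 10 or more normalized counts as varying beyond counting error (50%). This test compares these 3 libraries, and with 1 library per mouse, animal and library preparation cannot be told apart. The median CV of the 9812 genes was 8.80%, beside a median counting error of 3.84% expected from each gene's mean count. The latter is an expected value and not a CV measured over 3 libraries. At the threshold itself, Mettl26, Mrps7 and Uqcc3 lay just outside of a wide range, with ratios that round to 1.5, and Serpinb6a, Cblc and Rpl21-ps15 just inside.

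**Figure D4:**
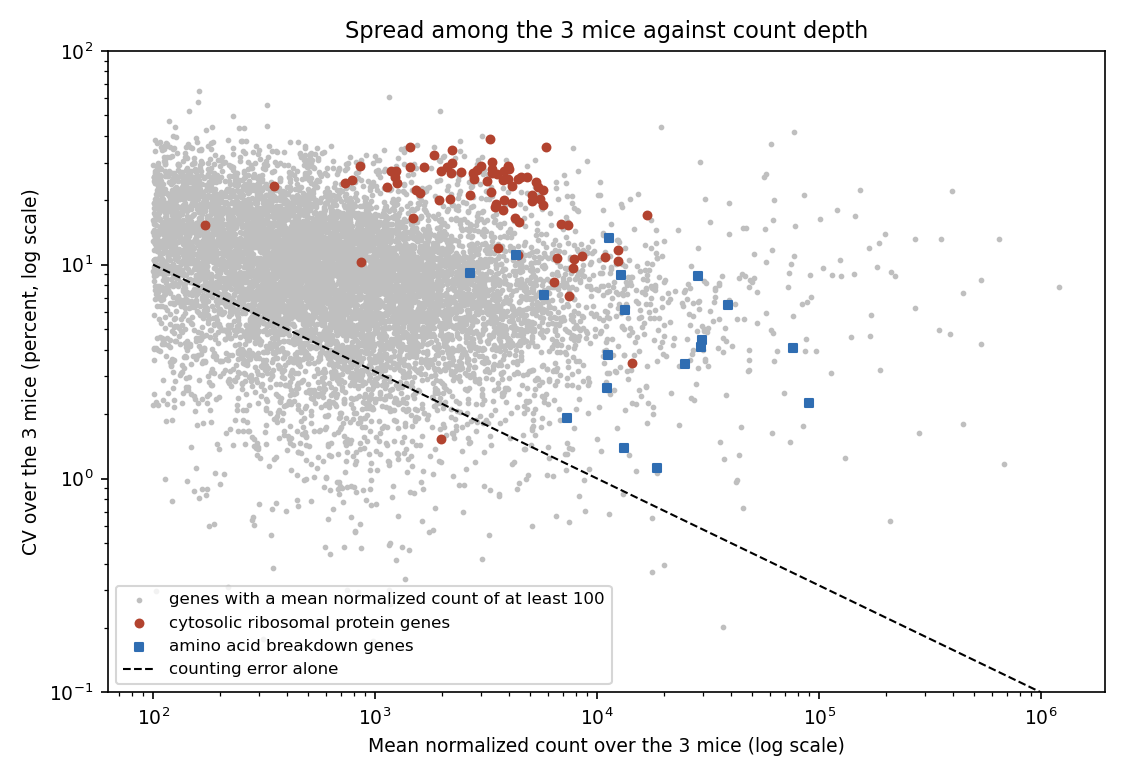
CV over the 3 mice against mean normalized count for the 9812 genes read for range, both on log axes; red points are cytosolic ribosomal protein genes, blue squares amino acid breakdown genes, and the dashed line is counting error alone. Most genes lie above the dashed line, and the red points lie above the blue ones at similar counts.

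Mouse 1 stood apart from the other mice. Between mice 2 and 3, 100 genes were at least 1.5-fold apart, beside 453 between mice 1 and 2 and 510 between mice 1 and 3. Of the 764 genes with a wide range, mouse 1 was lowest in 583 (76.3%), mouse 2 in 103 and mouse 3 in 78, although over all 9812 genes mouse 1 was lowest in 37.8%, mouse 2 in 35.6% and mouse 3 in 26.7%. The highest value was in mouse 3 for 419 of the 764 genes, in mouse 2 for 233 and in mouse 1 for 112, beside 29.9%, 31.3% and 38.8% of all genes. Without mouse 1, 90 genes had a wide range and the biological coefficient of variation was 7.85%.

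The difference of mouse 1 followed gene length and base composition. When the genes were split into 5 equal bins by length, the shortest bin had a median deposited length of 1736.5 bases. There the median log2 ratio of mouse 1 over the mean of mice 2 and 3 was -0.20, and 21.2% of genes had a wide range. In the longest bin the median log2 ratio was 0.12 and 2.60% had a wide range. By GC content of the longest transcript the median log2 ratio ran from 0.13 in the bin with the least GC to -0.20 in that with the most. Mice 2 and 3 also differed with GC content, from -0.14 to 0.11 in the median log2 ratio of mouse 2 over mouse 3, and less with length. Across genes the Spearman correlation of the mouse 1 ratio was 0.445 with length and -0.521 with GC content, given as a description since genes of 1 library are not independent. After a spline correction for length and GC, which was added after these values were seen, 341 genes had a wide range, of which 276 were among the 764, and the median CV was 6.62%. Which step or property of the animals gave this difference was not tested.

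**Figure D5:**
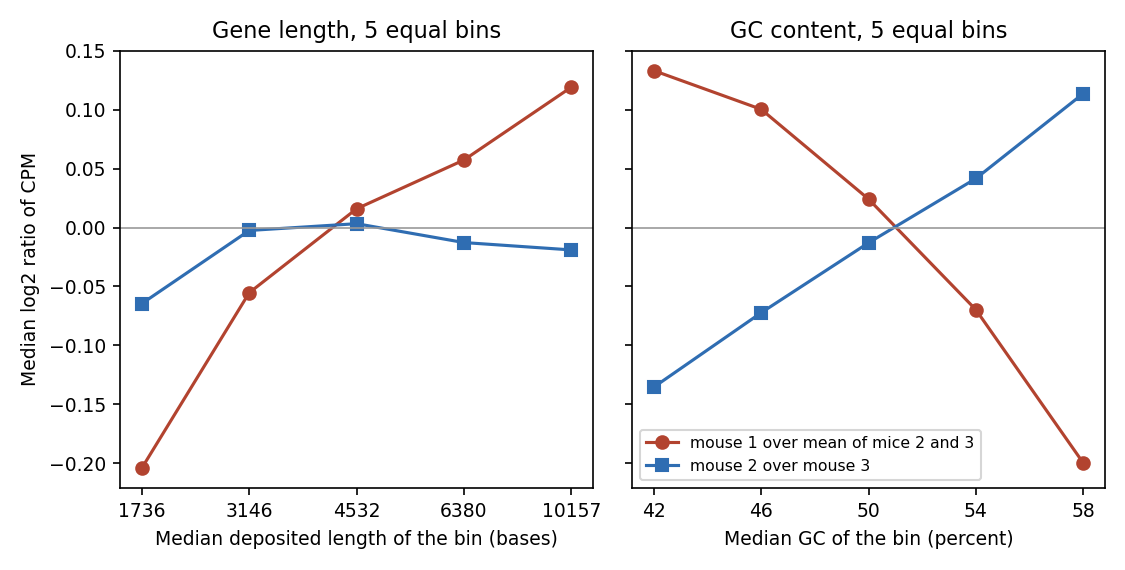
Median log2 ratio of CPM for mouse 1 over the mean of mice 2 and 3 (red) and for mouse 2 over mouse 3 (blue) in 5 bins of gene length (left) and of GC content (right); tick labels are the median of each bin. The red line runs from -0.20 to 0.12 with length and from 0.13 to -0.20 with GC content.

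Ribosomal protein genes had the highest median CV of any list read. Their share of unscaled counts was 0.848, 1.1 and 1.2% in mice 1, 2 and 3. Of 78 cytosolic ribosomal protein genes read for range, 51 had a wide range, mouse 1 was lowest in 77 and mouse 3 highest in 72, and the median CV was 23.2%. Rps27a was at 31.4, 60.5 and 72.8 CPM per kb and Rps19 at 9.93, 16 and 20.6. After the correction 20 of the 78 had a wide range. These genes had a median length of 1805.5 bases and have many processed pseudogenes of nearly the same sequence. The list was added after its values were seen. Rps19 had a ratio of 2.04 after the correction, which used the deposited length. That length is 4685 bases for Rps19, beside 1284 for its transcript with the longest coding sequence. Among nuclear genes of the respiratory chain mouse 1 was lowest in 19 of 22, with Cox7a2 at 47.1, 71.6 and 91.9 and Ndufa1 at 46.1, 75.3 and 91.8 CPM per kb, 6 had a wide range, and 2 after the correction. Cox6c was at 18.4, 29.3 and 36.1 CPM per kb and kept a ratio of 1.98 after the correction. Its deposited length is 3567 bases, beside 738 for its transcript with the longest coding sequence. Ndufs1 and Sdha were at 10.7, 10.3 and 11.1 and at 94.7, 92.2 and 97.1 CPM per kb.

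The 20 genes with the largest ratio of the highest to the lowest mouse had ratios between 2.25 and 4.76. Mouse 1 was lowest in 19 and mouse 2 in 1, Gm12751. By annotation 11 were protein coding and 7 were pseudogenes, and their median length was 884 bases, beside 4532 for all genes read. Behind Mup10 came Rps2-ps10 with 63, 249 and 153 counts, Gm12751 with 193, 57 and 235 and Gm3362 with 134, 357 and 456. Of the 100-base words of these 3 genes, 92.4%, 100% and 58.6% occur in other genes. Among the protein-coding genes Scand1 had 66, 193 and 165 counts, Selenoh 67, 114 and 165, and Gnas, which encodes the stimulatory G protein alpha subunit, 140, 301 and 312. The ribosomal RNA gene CT010467.1, counted although the libraries were made for mRNA, had 10557, 21720 and 24500 counts. After the correction 17 of the 20 genes had a wide range.

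Of 54 gene lists with at least 5 members read for range, 17 had a median CV above that of all genes. The lowest medians among these were those of amino acid breakdown (4.28%), alcohol and aldehyde enzymes (4.21%) and chaperones of the endoplasmic reticulum (4.82%). By this measure of shared words, 124 of 764 listed genes have at least 10% of their 100-base words in other genes as well. Genes often used as references in quantitative PCR differed among themselves: Actb, Pgk1 and Tbp had CVs of 1.08%, 2.35% and 2.09%, whereas Gapdh and Ppia had 15.3% and 13.7%. Gapdh was at 30.5, 23.4 and 31.3 CPM per kb, and 20.9% of the 100-base words of its transcripts occur in other genes. The shares were 51.7% for Pgk1, 12.7% for Tbp and 13.4% for Ppia.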

How the data were processed

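Livers of 3 GalNAc-siNC-treated mice were profiled by mRNA sequencing (Illumina Stranded mRNA Prep, paired 150 bp reads). According to the methods and the submitters' processing notes, the authors aligned reads with HISAT2 to mm10 (GRCm38) and used DESeq2 for their own comparison. They deposited raw counts per gene with a gene length. The counting program, strand setting and annotation release are not given in the sources used here. Columns of the siRnf10 mice were not used.

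Totals were 28430868 to 33058645 counts. TMM factors and the biological coefficient of variation came from edgeR 4.0.16 in R 4.3.3 with an intercept-only model, after a filter on low counts. DESeq2 1.42.0 size factors and dispersions were alternatives. CPM was divided by deposited length in kb. Ranges were read for genes averaging 100 or more normalized counts, and a wide range means 1.5-fold. The chi-square test used a mean of at least 10 and pandas 2.3.3, numpy 2.4.6 and scipy 1.17.1 in Python 3.11.15. The tests were tested on simulated counts. Symbols, biotypes and transcripts came from GENCODE M21, and 55227 of 55487 identifiers matched. Named genes were the 30 highest by CPM per kb, the 20 with the largest ratio among those read, and members of 67 lists. The members and lists were chosen with earlier results of these data known. The labels do not say more of how the 3 samples were taken, so spread may be technical. Some members of the lists are not reported here.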

Additional observations from a re-analysis of the deposited data

How the results depend on the processing

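No paired analysis was possible because the results come from 1 group and no test between groups. The 764 genes with a wide range became 3196 among genes averaging 10 or more normalized counts, 275 among those averaging 500 or more, 71 with a 2-fold threshold, and 341 after the length and GC spline, which was chosen after seeing the data. With 1 mouse left out, the count lay between 90 and 509, and without mouse 1 it was 90. Genes beyond counting error, 7001 with all mice, lay between 3343 and 5610, with 3343 without mouse 1. Fewer samples enter these counts. Alb was at 16946 CPM per kb with the deposited length, 19512 with the length of the transcript with the longest coding sequence (added after seeing the data) and 41625 as TPM, which is scaled to another total. Alb ranked second, but 1 by CPM without division by length, by that transcript length, and without mouse 2 or mouse 3. Of all alternatives 38 stayed within the spread or within 1.5 times the count, and 14 did not. The biological coefficient of variation was 11.7%, 12.8% as the median of the DESeq2 dispersions, 12.3% without a filter, and between 7.85% and 13.4% with 1 mouse left out. With 3 mice, 28430868 counts or more and no second library per mouse, differences between animals and between preparations cannot be told apart.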
